A study of Homo sapiens with 22 samples.

Results

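TTAA-poor and TTAA-rich segments of the human genome are described here by the piggyBac insertions that they received in K562 cells, an established human leukemia cell line with red cell and megakaryocyte features. The segments are 100 kb bins of chromosomes 1 to 22 of the hg38 reference that hold no undetermined base. A bin was called TTAA-poor when the reference sequence held 300 or fewer copies of the tetranucleotide TTAA, and TTAA-rich when it held 900 or more. Insertion counts do not enter this rule, but the bins were chosen with earlier results of these data known. Of 27177 bins, 1622 (5.97%) were TTAA-poor and 2770 (10.2%) were TTAA-rich. The TTAA-poor bins held 333553 TTAA sites and the TTAA-rich bins 2640550.

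Calling Cards libraries were made from cells that received a barcoded donor, a piggyBac self-reporting transposon with a puromycin resistance gene, together with a helper plasmid that supplies the transposase. The helper was hyPBase in 10 libraries and hyPBase-centrip in the other 10, and what sets hyPBase-centrip apart is not described in the sources used here. All 20 libraries share the cell line, the donor and the puromycin selection. Transfections were plated together in groups of 3, RNA was isolated from every 3 replicates, and insertions were read from the transcripts of the transposon itself, so the libraries may not come from separate cultures and the p-values measure only the spread between libraries. No label gives the number of genome copies, and K562 is not diploid, so more copies of a segment and more insertions per copy cannot be told apart.

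The transposase of piggyBac joins the transposon to DNA at TTAA, and the tetranucleotide is restored on both sides of the insert. TTAA is made of A and T only, so it is scarce in the GC-rich, gene-dense parts of human chromosomes and plentiful in the AT-rich, gene-poor parts.

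Some of the most-hit TTAA sites of each group, no more than 1 per bin, show what a preferred target looks like in both kinds of DNA. They are written from the plus strand of hg38, 5′ to 3′, with the TTAA in capitals and 10 reference bases on either side.
TTAA-poor site 1, chr9:129584311-129584334: ggagttttctTTAAaggacagggg
TTAA-poor site 2, chr11:75534681-75534704: gctctctcctTTAAacggaccatt
TTAA-poor site 4, chr22:20072030-20072053: cttttgttcaTTAAaggccagctg
TTAA-rich site 1, chr15:35557175-35557198: agggagctttTTAAtgcagtttac
TTAA-rich site 2, chr12:60144735-60144758: agcaaatataTTAAacaaactcat
TTAA-rich site 3, chr3:150449407-150449430: agccactttcTTAAtgtgtgtata
TTAA-rich site 4, chr6:68042749-68042772: agcagctttaTTAAtaattgacaa

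TTAA-poor site 1 received 796 insertions, with a lowest, median and highest count per library of 36, 40 and 42. It lay outside protein-coding genes, 24563 bases from the nearest start of one, that of NTMT1. TTAA-poor site 2 received 788 insertions outside protein-coding genes, 8750 bases from the start of GDPD5. TTAA-poor site 4 received 751 outside protein-coding genes, 8181 bases from the start of DGCR8, which codes for a microRNA processing protein.

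TTAA-rich site 1 received 793 insertions, with 35, 40 and 42 as its lowest, median and highest count per library. It lay outside protein-coding genes, 10992 bases from the start of DPH6. TTAA-rich sites 2 and 4, with 777 and 727 insertions, were far from any protein-coding start, at 548716 bases from SLC16A7 and 592523 bases from ADGRB3. TTAA-rich site 3, with 756, was in an intron of TSC22D2, 41119 bases from its start. Each of these sites was hit in all 20 libraries. Insertions at a site are told apart by orientation and barcode, and each library held 21 barcodes with at least 1000 insertions, and over both groups the most insertions at 1 site in 1 library was 43. With 2 orientations, counts at the strongest sites are thus close to what the barcodes allow.

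A typical TTAA-rich bin looked different. The stretch below is 200 reference bases around the most-hit TTAA in the TTAA-rich bin with the median number of insertions per TTAA site, and every TTAA is in capitals.
TTAA-rich stretch, chr4:132216083-132216282: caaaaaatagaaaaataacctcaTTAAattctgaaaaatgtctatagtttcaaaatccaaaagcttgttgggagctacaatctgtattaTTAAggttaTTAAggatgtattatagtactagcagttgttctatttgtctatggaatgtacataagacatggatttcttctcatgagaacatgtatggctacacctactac

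The stretch, outside protein-coding genes and 933113 bases from the start of the protocadherin gene PCDH10, held 3 TTAA sites that took 15 insertions together. Its most-hit site took 8. In the whole TTAA-poor group the median distance between neighboring TTAA sites of a bin was 215 bases, against 63 bases in the TTAA-rich group. A and T made up 58.4% of the 20 bases on each side of a TTAA in TTAA-poor bins and 69.2% in TTAA-rich bins.

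The libraries held 52154230 insertions, 1509672 to 3596762 each, and every one on chromosomes 1 to 22 lay on a TTAA. TTAA-poor bins received 1700851 (3.36% of those in all bins) and TTAA-rich bins 4233509 (8.37%). hyPBase-centrip replicate 3 and hyPBase replicate 8 stood apart from the other libraries of their helper in TTAA-rich bins, and results that rest on them are given with and without them. Pairs of libraries with consecutive numbers and the same helper shared 1.13 ± 0.117 (SD, n = 18 pairs) times as many position, orientation and barcode combinations as pairs from different helpers, given their sizes, against 1.02 ± 0.0853 (SD, n = 72) for the other pairs of 1 helper.

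The groups differed in what they hold. GC content had a median of 52.6% in TTAA-poor and 34.9% in TTAA-rich bins. TTAA-poor bins held 3527 starts of protein-coding genes, 21.7 per Mb, and TTAA-rich bins 483, or 1.74 per Mb. A start was present in 64.4% of TTAA-poor and 13.0% of TTAA-rich bins, and 52.2% of TTAA-rich bins held no protein-coding gene sequence. Chromosome 19 was the most TTAA-poor chromosome, with 249 such bins (43.0% of its bins) and no TTAA-rich one. Chromosome 13 was the most TTAA-rich, with 243 (25.1%), followed by chromosome 4 with 416 (22.1%). The longest run of TTAA-poor bins, 27 in a row, was at chr19:2900001-5600000, and the longest run of TTAA-rich bins, 22 in a row, at chr1:190000001-192200000.

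Per available site, TTAA-poor DNA received about 3 times the insertions of TTAA-rich DNA. Over the 20 libraries there were 5.10 insertions per TTAA site in TTAA-poor bins, 1.6 in TTAA-rich bins and 3.00 in the bins between. Because libraries differ in size, each was divided by its own mean over all bins, which gives a relative density. The relative density per TTAA site of TTAA-poor bins had a lowest, median and highest value of 1.74, 1.77 and 1.86 with hyPBase and 1.76, 1.8 and 1.99 with hyPBase-centrip. For TTAA-rich bins the values were 0.527, 0.580 and 0.591 with hyPBase and 0.470, 0.563 and 0.575 with hyPBase-centrip. Every library was above its own mean in TTAA-poor bins and below it in TTAA-rich bins, and the groups did not overlap.

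The log2 ratio of TTAA-poor to TTAA-rich per TTAA site was 1.64 ± 0.0808 (SD, n = 10) with hyPBase, a 3.11-fold difference, and above 0 in 10 of 10 libraries (two-sided exact sign-flip permutation test, p = 0.00195, adjusted p = 0.00195 over 50 tests). With hyPBase-centrip it was 1.72 ± 0.135 (SD, n = 10), a 3.30-fold difference (same exact test, p = 0.00195, adjusted p = 0.00195). This is the smallest p that 10 libraries allow. Without hyPBase replicate 8 and without hyPBase-centrip replicate 3 the folds were 3.06 and 3.21. Taking the median bin instead of the sum over bins moved the folds to 5.37 and 5.91. Some other settings lowered them and some raised them. With barcodes collapsed, so that a position and orientation counted once per library, the folds were 2.49 with hyPBase and 2.60 with hyPBase-centrip. Limits of 200 and 1000 TTAA sites gave 2.67 and 2.86. Bins shifted by 50 kb gave 3.27 and 3.47, and insertions of at least 2 reads gave 3.62 and 4.10.

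Per base the order was the other way round. TTAA-poor bins received 10486 insertions per Mb over the 20 libraries and TTAA-rich bins 15283, while TTAA-rich bins offered 4.64 times as many TTAA sites per base. The relative density per Mb ranged from 0.543 to 0.622 in TTAA-poor and from 0.681 to 0.856 in TTAA-rich bins. Per Mb, hyPBase libraries had a log2 ratio of TTAA-poor to TTAA-rich of -0.58 ± 0.0808 (SD, n = 10), and for hyPBase-centrip libraries it was -0.49 ± 0.135 (SD, n = 10). The ratio was below 0 in 20 of 20 libraries (n = 10 each, exact sign-flip permutation test run separately by helper, p = 0.00195 for each). This order held for the sum of insertions and not for the typical bin: the median TTAA-poor bin received 8385 insertions per Mb and the median TTAA-rich bin 5990, and the fold by medians was 1.28 with hyPBase and 1.42 with hyPBase-centrip. For the sum of insertions, limits of 200 and 1000 TTAA sites gave a fold per Mb of 0.285 with hyPBase and 0.305 with hyPBase-centrip. The lower limit takes in 258 bins with 100 or fewer TTAA sites, whose median was 0 insertions per Mb. Only 11 of these had flanks that occur once in hg38 at 80% or more of their TTAA sites. Among bins with such flanks the relative density per Mb was 0.489 ± 0.0144 at 101 to 200 TTAA sites and 0.782 ± 0.0262 at 201 to 300 (SD, n = 20).

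**Figure D1:**
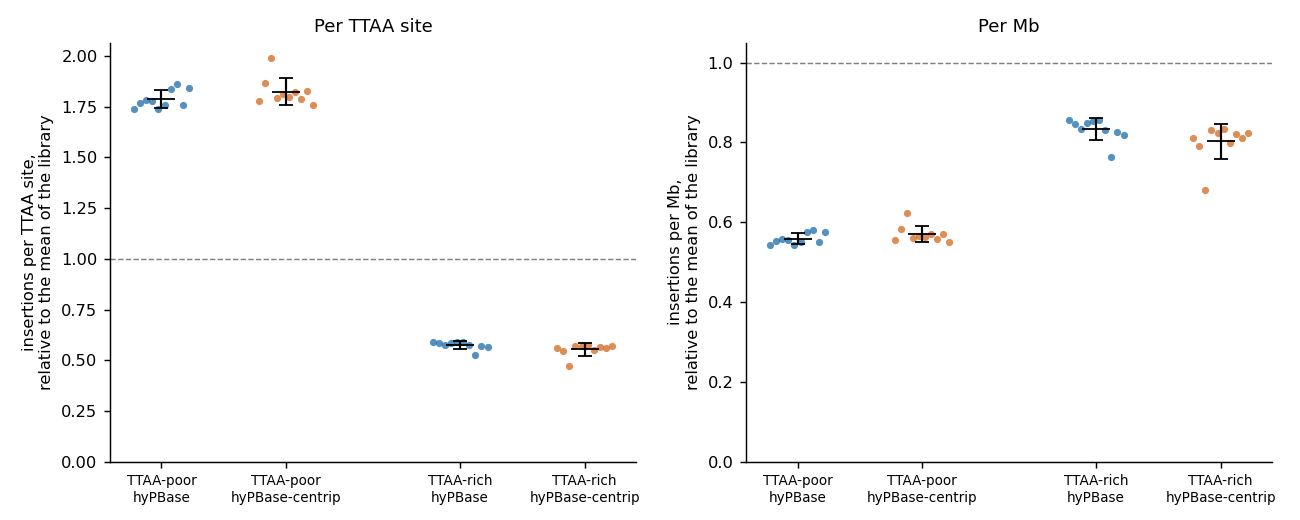
Relative density of insertions per TTAA site (left) and per Mb (right) in TTAA-poor and TTAA-rich bins. Each point is 1 library, bars are the mean and SD over 10 libraries, and the dashed line is the mean of each library over all bins; TTAA-poor bins lie above TTAA-rich bins on the left (1.74 to 1.99 against 0.470 to 0.591) and below them on the right.

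Between the groups the density per TTAA site fell step by step with the number of TTAA sites. Among bins in which at least 80% of TTAA sites had 32-base flanks that occur once in hg38, here called unique sites, it was 2.00 ± 0.0670 (SD, n = 20) at 201 to 300 TTAA sites, 1.24 ± 0.00943 at 601 to 700 and 0.541 ± 0.0339 at 1001 to 1100. Per Mb the bins with 501 to 600 TTAA sites were highest, at 1.24 ± 0.0280, and both ends were lower. At the limits themselves nothing jumped: bins with 281 to 300 TTAA sites had 5.16 insertions per TTAA site and those with 301 to 320 had 4.73, while bins with 880 to 899 had 1.74 and those with 900 to 919 had 1.54.

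**Figure D2:**
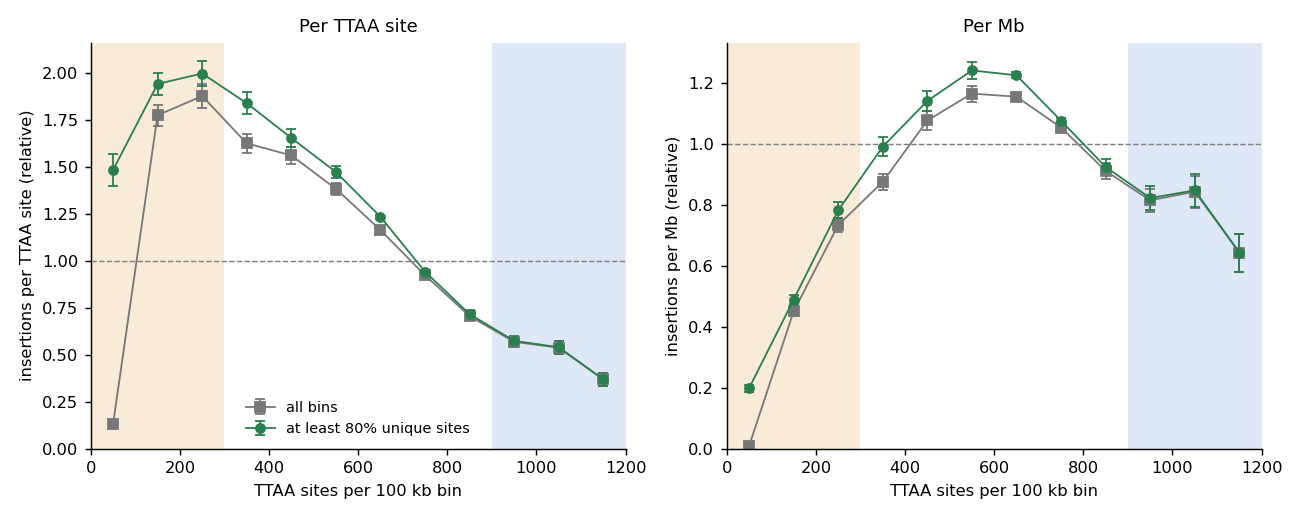
Relative density of insertions per TTAA site (left) and per Mb (right) in bins grouped by their number of TTAA sites, as mean and SD over 20 libraries, for all bins and for bins with at least 80% unique sites. Shading marks the TTAA-poor (left side) and TTAA-rich (right side) bins; the density per site falls from 2.00 to 0.541 between 201 to 300 and 1001 to 1100 TTAA sites, and the density per Mb peaks at 501 to 600.

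TTAA-poor bins were of 2 kinds. In 313 of them GC content was under 46%, a limit chosen after the values were seen, and these held 25219 TTAA sites of which, in the median bin, 0% were unique. They received 396 insertions in all, and 292 had none. The part that repeated sequence has in these zeros was not tested. The other 1309 TTAA-poor bins, with GC content of 46% or more, all received insertions, 5.51 per TTAA site and 12990.5 per Mb. In the 1133 TTAA-poor bins with at least 80% unique sites there were 5.62 insertions per TTAA site, against 1.62 in the 2723 such TTAA-rich bins. The ratio of these was 3.47 per TTAA site and 0.857 per Mb.

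**Figure D3:**
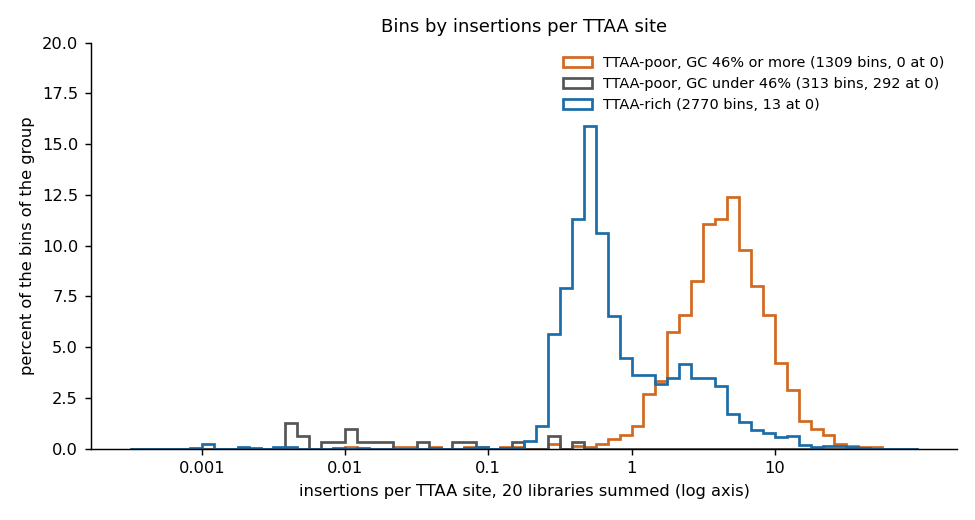
Distribution of bins by insertions per TTAA site summed over 20 libraries, on a log axis, as percent of the bins of each group; bins at 0 are not drawn and are counted in the legend. TTAA-poor bins with GC of 46% or more center near their median of 4.45, most TTAA-rich bins lie near 0.628 with a long tail to higher values, and 292 of 313 TTAA-poor bins with GC under 46% are at 0.

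TTAA-rich bins were mostly sparse, with a few that were dense. Their median was 0.628 insertions per TTAA site and their mean 1.6. The densest 10% of the TTAA-rich bins held 47.3% of the insertions of the group. In all TTAA-poor bins the densest 10% held 33.1%, and in those with at least 80% unique sites 28.9%. Of the TTAA-rich bins with at least 80% unique sites, 656 (24.1%) were above the median of all bins of the genome, 1.82 insertions per TTAA site, as were 1035 (91.4%) of the TTAA-poor ones. Among TTAA-rich bins with at least 80% unique sites, 12.9% had a protein-coding start. In their densest 10% per TTAA site this share was 39.0%, and in their sparsest 10% it was 5.51%. Among TTAA-poor bins with at least 80% unique sites, 78.7% had a start, with 79.6% in the densest and 44.2% in the sparsest 10%.

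Each of the 5 densest TTAA-poor bins overlapped at least 1 protein-coding gene. At chr11:300001-400000, with 238 TTAA sites, there were 49.6 insertions per TTAA site, and the lowest, median and highest count per library was 371, 592.5 and 752. The bin overlaps B4GALNT4, PKP3 and IFITM3, the last coding for an interferon-induced membrane protein that restricts virus entry. The bin at chr1:30700001-30800000 had 42.9 and overlaps LAPTM5, a lysosomal membrane protein gene of blood cells. At chr2:27000001-27100000, over AGBL5, MAPRE3 and the fructose kinase gene KHK, there were 33.4. The bins at chr20:32600001-32700000 (C20orf203) and chr3:196100001-196200000 (ZDHHC19) had 32.3 and 29.6.

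At the other end were 2 TTAA-poor bins without a protein-coding gene, at chr8:46100001-46200000 with 0.280 and chr12:34300001-34400000 with 0.429 insertions per TTAA site. The third was chr19:8900001-9000000, within the mucin gene MUC16, with 0.575. No library had more than 12 insertions in any of these 3 bins.

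The densest TTAA-rich bins matched them per site and exceeded them in number. At chr4:126700001-126800000, where no protein-coding gene is annotated, 926 TTAA sites took 42102 insertions, 45.5 per site. The lowest, median and highest count per library was 1180, 2131.5 and 2683. The bin at chr21:21100001-21200000, in the neural adhesion gene NCAM2, had 36.9. At chr11:16300001-16400000, in SOX6, the gene of a transcription factor of red cell maturation, there were 32. At chr10:22300001-22400000, over SPAG6 and the Polycomb gene BMI1, there were 31.5, and at chr6:68000001-68100000, without a protein-coding gene, 30.2. Only the bin of these 5 on chromosome 10 held a protein-coding start.

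TTAA-rich bins without any insertion numbered 13, all on chromosome 9. Of these, 12 lay at chr9:20800001-31300000, where 26 TTAA-rich bins together took 295 insertions, 0.0121 per TTAA site. The other 60 TTAA-rich bins of chromosome 9 had 1.19 per TTAA site. The bin at chr9:29000001-29100000, in the neural gene LINGO2, had 978 TTAA sites and 0 insertions in 20 libraries, which allows up to 0.00307 per TTAA site. K562 is known to lack part of the short arm of chromosome 9, and the part of this in these values was not tested. Without chromosomes 9 and 22 the fold per TTAA site was 3.04 with hyPBase and 3.22 with hyPBase-centrip. Within each of the 15 chromosomes that had at least 10 bins of both groups with at least 80% unique sites, the TTAA-poor bins were denser per site, by 1.17-fold on chromosome 15 to 5.97-fold on chromosome 9, with a median of 2.82-fold. The value of chromosome 9 includes the 12 bins without an insertion at chr9:20800001-31300000, and the next highest was 4.58-fold on chromosome 14.

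A larger share of the TTAA sites was used in TTAA-poor bins. Over the 20 libraries, 55.2% of the TTAA sites of TTAA-poor bins were hit at least once, and 41.1% of those of TTAA-rich bins. A hit site took 9.24 insertions on average in TTAA-poor and 3.90 in TTAA-rich bins. Sites hit in all 20 libraries made up 1.08% (3606) of the first and 0.186% (4903) of the second. In single libraries 8.82% to 17.4% of the TTAA sites of TTAA-poor bins were hit. After each library was thinned to 1469581 insertions, the share was 9.11% ± 0.196 with hyPBase and 9.35% ± 0.220 with hyPBase-centrip in TTAA-poor bins, and 3.60% ± 0.133 and 3.48% ± 0.216 in TTAA-rich bins (SD, n = 10). The difference was 5.51 ± 0.262 points with hyPBase and 5.87 ± 0.383 points with hyPBase-centrip, above 0 in 20 of 20 libraries (n = 10 each, exact sign-flip permutation test, p = 0.00195 for each).

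The groups were nearest each other at gene starts and farthest apart outside genes. Within 5 kb of a protein-coding start, TTAA-poor bins had 8.69 insertions per TTAA site and TTAA-rich bins 7.98. Elsewhere in protein-coding genes they had 4.31 and 2.13, and outside them 4.29 and 1.07. The log2 ratio was 0.10 ± 0.0612 near starts, 0.97 ± 0.0796 elsewhere in genes and 1.97 ± 0.0941 outside genes with hyPBase (SD, n = 10). With hyPBase-centrip it was 0.15 ± 0.0753, 1.08 ± 0.133 and 2.06 ± 0.153 (SD, n = 10). Each was above 0 in 10 of 10 libraries (n = 10, exact sign-flip permutation test, p = 0.00195 for each). Sites near a start were 18.2% of the TTAA sites of TTAA-poor bins and 1.42% of those of TTAA-rich bins. Giving the 3 classes equal weight left a log2 ratio of 1.01 ± 0.0751 for hyPBase and 1.10 ± 0.119 for hyPBase-centrip libraries (SD, n = 10; exact sign-flip permutation test, p = 0.00195 for each).

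**Figure D4:**
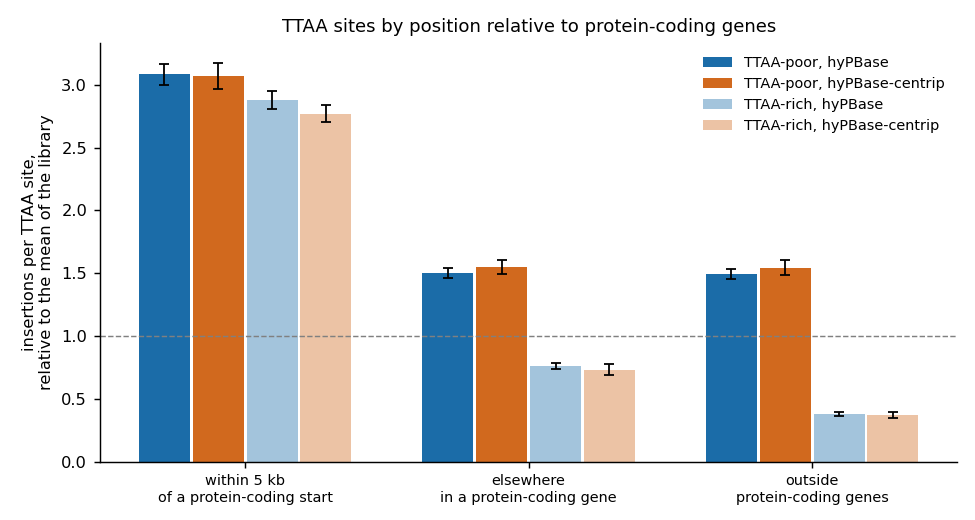
Relative density of insertions per TTAA site by the position of the site, in TTAA-poor (full color) and TTAA-rich (pale) bins and for each helper. Bars are means and error bars SD over 10 libraries; near protein-coding starts both groups are at 2.77 to 3.08, and outside protein-coding genes TTAA-poor bins are near 1.5 and TTAA-rich bins below 0.4.

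Taken by bin, the presence of a gene start went with more insertions in both groups. TTAA-poor bins with a protein-coding start had 5.85 insertions per TTAA site, and TTAA-rich bins with one 3.37. Without a start the values were 3.06 and 1.34. Among bins with at least 80% unique sites and no start, the 241 TTAA-poor bins had 4.37 and the 2373 TTAA-rich bins 1.35. Bins without any protein-coding gene sequence had 1.71 in the TTAA-poor and 0.957 in the TTAA-rich group, a fold of 1.73 with hyPBase and 1.87 with hyPBase-centrip (n = 10 each, exact sign-flip permutation test, p = 0.00195 for each). Of these 376 TTAA-poor bins 292 had no insertion. In the 50 of them with at least 80% unique sites there were 4.64, against 0.964 in 1415 such TTAA-rich bins, and the folds were 4.67 and 5.04 (same exact test, p = 0.00195 for each). A start went with a 2.52-fold difference among TTAA-rich bins and a 1.94-fold difference among TTAA-poor bins with hyPBase, and with 2.51-fold and 1.88-fold with hyPBase-centrip. Among bins with at least 80% unique sites these were 2.55-fold and 1.39-fold with hyPBase, and 2.53-fold and 1.35-fold with hyPBase-centrip.

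The same flanking bases marked the most-hit and the least-hit sites in both groups. Sites with T before and A after, written tTTAAa, were hit most, with 8.74 insertions per site in TTAA-poor and 2.64 in TTAA-rich bins. Sites written gTTAAc were hit least, with 0.417 and 0.157. In each of the 10 classes of flanking bases, with strands merged, TTAA-poor bins had more per site, by 2.66-fold (gTTAAc) to 3.60-fold (aTTAAg). Weighting the classes as they occur in TTAA-rich bins gave log2 ratios of 1.71 ± 0.0798 (hyPBase) and 1.8 ± 0.135 (hyPBase-centrip; SD, n = 10).

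Genes that started in the 2 groups differed in size. The 3527 of TTAA-poor bins had a median length of 13.6 kb with 25 TTAA sites, and 113 of them held no TTAA. The 483 of TTAA-rich bins had a median length of 82.4 kb with 779 TTAA sites. Over all their sites together, the first took 5.12 insertions per TTAA site and the second 2.03. Of all 18982 protein-coding genes that start in a bin, 18.6% started in TTAA-poor and 2.54% in TTAA-rich bins, and the lists below are read against these shares.

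Of 30 genes of the red cell and platelet lineages, 9 (30.0%) started in TTAA-poor bins and 0 in TTAA-rich bins. HBZ, an embryonic globin gene at chr16:142728-154503, took 2244 insertions at 38 TTAA sites, 59.1 per site. GATA2, a transcription factor gene of blood progenitors at chr3:128479427-128493201, took 1460, or 38.4 per site. KLF1, the gene of an erythroid transcription factor, has 5 TTAA sites that took 417, and the GATA1 cofactor gene ZFPM1 took 6.09 per site. Of 80 ribosomal protein genes, 25 (31.3%) started in TTAA-poor and 0 in TTAA-rich bins, with 10.9 insertions per TTAA site together. RPL13A had 26.9 and RPL22 13.7.

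Neural receptor genes were found at both ends, and long genes of synaptic adhesion only at the TTAA-rich end. Of 43 GABA and glutamate receptor genes, 7 started in TTAA-poor bins (16.3%) and 9 in TTAA-rich bins (20.9%). GRIK1, a kainate receptor gene of 403.1 kb in the second, had 9.73 insertions per TTAA site, while GRM5 had 0.697. GRIK5 and GRM4 of the first had 7 and 3.77. Of 26 long genes of synaptic adhesion, 6 (23.1%) started in TTAA-rich and 0 in TTAA-poor bins, among them LRP1B with 0.547, CNTN5 with 0.546 and CSMD3 with 0.532 insertions per TTAA site. Of 33 cadherin and protocadherin genes outside the clustered protocadherins, 2 (6.06%) started in TTAA-poor and 7 (21.2%) in TTAA-rich bins. PCDH9 of the TTAA-rich ones had 3.32 per site against 0.622 in CDH18.

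Other families were also counted. Of 494 zinc finger genes named ZNF, 58 (11.7%) started in TTAA-poor and 3 (0.607%) in TTAA-rich bins. Of 412 olfactory receptor genes, 2 (0.485%) started in TTAA-poor and 8 (1.94%) in TTAA-rich bins. Of 149 keratin and keratin-associated genes, 19 (12.8%) and 6 (4.03%) did. None of 39 HOX genes started in either group.

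Insertions in genes ran more often against the gene than with it, and this was stronger in TTAA-rich bins. The share of insertions on the strand of the gene, over sites in protein-coding genes of 1 strand only and with orientation as the files give it, is called the same-strand share. With hyPBase its lowest, median and highest value was 36.1%, 36.7% and 36.9% in TTAA-poor and 29.7%, 30.5% and 31.8% in TTAA-rich bins. With hyPBase-centrip it was 36.3%, 36.7% and 37.4% in TTAA-poor and 32.1%, 32.5% and 32.7% in TTAA-rich bins. All were below 50% and the groups did not overlap (against 50%, n = 10 each, exact sign-flip permutation test, p = 0.00195 for each).

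TTAA-poor bins were higher by 5.99 ± 0.556 points with hyPBase and by 4.30 ± 0.246 points with hyPBase-centrip (SD, n = 10; exact sign-flip permutation test, p = 0.00195 for each). Without the densest 10% of the bins of each group, an alternative added after the values were seen, the differences were 3.93 and 2.23 points. Near starts, within 5 kb, the same-strand share was 38.8% ± 0.447 in TTAA-poor and 31.0% ± 1.23 in TTAA-rich bins with hyPBase, and farther off 35.7% ± 0.252 and 30.6% ± 0.513 (SD, n = 10). Over all insertions, in genes or not, the share on the plus strand of the reference was 49.3% ± 0.198 in TTAA-poor and 50.6% ± 0.192 in TTAA-rich bins with hyPBase (SD, n = 10).

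**Figure D5:**
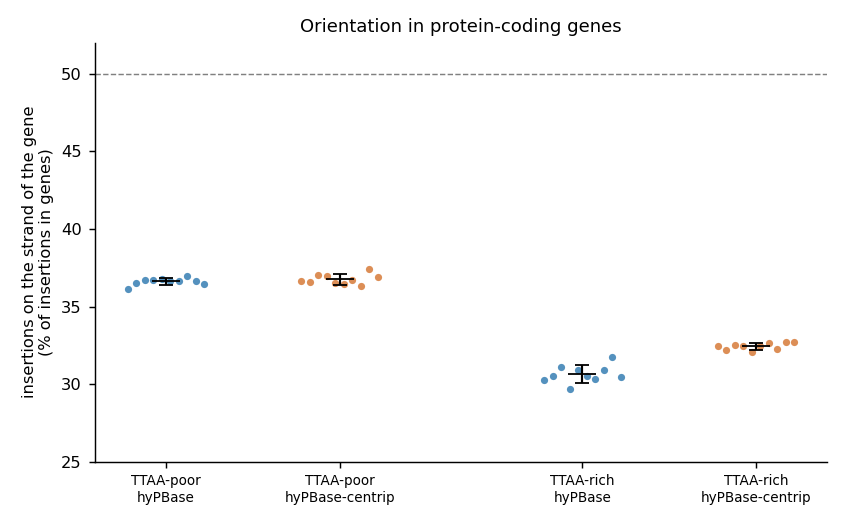
Same-strand share of insertions in protein-coding genes by library, with mean and SD over 10 libraries for each helper; the dashed line is at 50% and the axis starts at 25%. TTAA-poor bins are at 36.1% to 37.4% with both helpers, and in TTAA-rich bins hyPBase-centrip (32.1% to 32.7%) lies above hyPBase (29.7% to 31.8%).

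The helpers differed in this share in TTAA-rich bins. There hyPBase libraries averaged 30.6% ± 0.566 and hyPBase-centrip libraries 32.4% ± 0.221 (SD, n = 10 each), a difference of 1.81 points with every hyPBase-centrip library above every hyPBase library (two-sided permutation test, 100000 resamples, p = 2e-05, the smallest they can give, adjusted p = 9e-05 over 9 tests). In TTAA-poor bins the means were 36.6% ± 0.228 and 36.8% ± 0.333, a difference of 0.128 points (permutation test, p = 0.333, adjusted p = 0.333). The difference between the groups was 1.68 points smaller with hyPBase-centrip (permutation test, p = 2e-05, adjusted p = 9e-05). A higher share with hyPBase-centrip was not particular to TTAA-rich bins. In the bins between the groups, sites within 5 kb of a start had 31.2% ± 0.742 with hyPBase and 32.9% ± 0.463 with hyPBase-centrip. Farther off the values were 32.7% ± 0.378 and 33.9% ± 0.249 (SD, n = 10 each). The helper difference in these bins was not tested.

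The helpers did not differ past the threshold in how they divided insertions between the groups. The log2 ratio per TTAA site was 0.0849 higher with hyPBase-centrip (permutation test, p = 0.0849, adjusted p = 0.127). This rested on which libraries entered: without hyPBase replicate 8 it was 0.105 (exact permutation test, p = 0.00678), and without hyPBase-centrip replicate 3 it was 0.0447 (exact permutation test, p = 0.168). The thinned share of TTAA sites hit in TTAA-poor bins was 0.233 points higher with hyPBase-centrip (permutation test, p = 0.024, adjusted p = 0.0721).

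Single bins were compared between helpers by edgeR's quasi-likelihood test after TMM normalization. A bin passed when its p, after Benjamini-Hochberg adjustment, stayed under 0.05. Genome-wide, 418 of 26024 tested bins passed (1.61%), 175 higher (0.672%) and 243 lower (0.934%) with hyPBase-centrip. Of 1280 TTAA-poor bins tested, 18 passed (1.41%), 13 higher and 5 lower. Of 2726 TTAA-rich bins tested, 46 passed (1.69%), 1 higher and 45 lower. The share that passed in this fit was near the background in both groups. By direction, 1.02% of TTAA-poor bins were higher and 0.391% lower, and 0.0367% of TTAA-rich bins were higher and 1.65% lower. The median log2 fold change over the tested bins was 0.03 in TTAA-poor, -0.05 in TTAA-rich and -5.32e-05 in all bins. With barcodes collapsed, edgeR called 30 of all bins (0.115%), 0 TTAA-poor bins, with 60 at an unadjusted p below 0.05, and 8 TTAA-rich bins (0.294%). DESeq2 called 335 of all bins (1.29%), 3 TTAA-poor bins (0.234%) and 40 TTAA-rich bins (1.47%), so the TTAA-poor share was below that of all bins in both alternatives. With insertions of at least 2 reads it was above, at 1.84% (23 bins) against 1.18% (287 bins). With odd replicate numbers only it was 0.311% (4 bins) against 0.288% (75 bins). In the remaining alternative fits the TTAA-poor share was below that of all bins.

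In each group the 2 bins with the smallest adjusted p in each direction are named. At chr7:4700001-4800000, over the forkhead gene FOXK1, AP5Z1 and RADIL, insertions per 1000000 of a library's insertions in bins had a lowest, median and highest value of 15.4, 19.5 and 24 with hyPBase and 24, 24.9 and 31.5 with hyPBase-centrip. The log2 fold change was 0.43 ± 0.0865 (SE, edgeR adjusted p = 0.000666), and the 2 ranges met only at their ends. At chr12:120200001-120300000, over PXN and the ribosomal stalk gene RPLP0, it was 0.29 ± 0.0648 (SE, edgeR adjusted p = 0.00302). At chr12:121800001-121900000, over SETD1B, HPD and PSMD9, it was -0.24 ± 0.0475 (SE, edgeR adjusted p = 0.000416). At chr3:128400001-128500000, over GATA2 and EEFSEC, values were 113.4, 120.5 and 125.8 per 1000000 with hyPBase and 100.6, 106.6 and 115.5 with hyPBase-centrip, a log2 fold change of -0.16 ± 0.0408 (SE, edgeR adjusted p = 0.0122).

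Among TTAA-rich bins, chr4:150500001-150600000 in LRBA, a gene of membrane traffic in immune cells, had 278.9, 333.8 and 345.3 insertions per 1000000 with hyPBase and 249.2, 280.6 and 300.2 with hyPBase-centrip. Its log2 fold change was -0.23 ± 0.0330 (SE, edgeR adjusted p = 6.19e-08). The ranges of the helpers overlapped, since the hyPBase-centrip median of 280.6 lay above the lowest hyPBase value of 278.9. At chr6:13600001-13700000, over RANBP9, NOL7 and the sirtuin gene SIRT5, it was -0.21 ± 0.0328 (SE, edgeR adjusted p = 2.88e-06). The single TTAA-rich bin that was higher with hyPBase-centrip was chr8:58800001-58900000 in TOX, a nuclear factor gene of lymphocytes, at 0.18 ± 0.0436 (SE, edgeR adjusted p = 0.0106). The next in that direction, chr5:51900001-52000000 without a protein-coding gene, did not pass (log2 fold change 0.47 ± 0.146, SE, edgeR adjusted p = 0.0691). Of the 5 densest TTAA-rich bins, 3 were also lower: the SOX6 bin at chr11:16300001-16400000 (-0.14 ± 0.0295, SE, edgeR adjusted p = 0.000854), chr4:126700001-126800000 (-0.10 ± 0.0289, adjusted p = 0.0329) and the BMI1 bin on chromosome 10 (-0.10 ± 0.0296, adjusted p = 0.0419). Over all tested bins 0.934% were lower, and of the TTAA-rich ones 1.65%. The 5 densest TTAA-poor bins had log2 fold changes of -0.114 to -0.0243 and did not pass (edgeR adjusted p 0.0985 to 0.845). They held 7941 to 11805 insertions, against 28801 to 42102 in the 5 densest TTAA-rich bins. The part of these counts in which bins passed was not tested.

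Insertions in TTAA-poor bins had more reads behind them. With hyPBase the lowest, median and highest mean number of reads per insertion was 3.94, 4.96 and 7.61 in TTAA-poor and 2.35, 3.07 and 4.20 in TTAA-rich bins. The ratio was 1.68 with hyPBase and 1.58 with hyPBase-centrip, above 1 in 20 of 20 libraries (n = 10 each, exact sign-flip permutation test of the log2 ratio, p = 0.00195 for each). Insertions known from 1 read only made up 24.7% ± 5.52 in TTAA-poor and 35.1% ± 7.72 in TTAA-rich bins with hyPBase, and 33.2% ± 6.63 and 46% ± 7.65 with hyPBase-centrip (SD, n = 10). Insertions of this kind are read through transcripts of the transposon, so those without a read are missing from the counts, and the part of this in the densities was not tested. With insertions of at least 2 reads only, the fold per TTAA site was 3.62 with hyPBase and 4.10 with hyPBase-centrip.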

How the data were processed

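The authors deposited 1 text file per library with 1 line per insertion, holding position on hg38, a raw count of reads, orientation and barcode. The submitters' processing notes name Trimmomatic, BWA and SAMtools, and filters are not given in the sources used here. Of 2 further libraries, title and description name different helpers, and they were not used here. Each line was taken as 1 insertion. TTAA sites, GC content and flanks were read from hg38 and genes from GENCODE version 44. Flanks were called unique when both 32-base neighbors of a TTAA occur once in hg38, which only approximates what an aligner can place. The same-strand share used sites in protein-coding genes of 1 strand. Values per library were compared by exact sign-flip permutation tests within a helper and by permutation tests between helpers (scipy 1.17.1). Bins were tested with edgeR 4.0.16 on insertion counts, keeping bins where 10 or more libraries held 10 or more insertions, with DESeq2 1.42.0 as an alternative. On simulated counts of 26024 bins, edgeR recovered 86% of bins changed 1.5-fold and 49% of those changed 1.25-fold. Alternatives covered reads per insertion, barcodes, TTAA limits, unique sites, bin position, chromosomes, libraries and a replicate block. In each group the text names, among bins with at least 80% unique sites, the 5 with most and 3 with fewest insertions per TTAA site, the 2 with the smallest adjusted p in each direction between helpers, up to 3 overlapping genes each, and up to 4 list genes with most insertions. The bins, gene lists and tests were chosen with earlier results of these data known. PCR reads are not independent molecules, and limits from a count of 0 (3 insertions) cover counting error only. Some items that this rule would name are not reported here.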

Additional observations from a re-analysis of the deposited data

Results flagged for a closer look

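In 14 of 40 sets of 10 libraries, 1 library lay far from the others by Dixon's test at the 95% level. Chance gives this in about 1 in 20 independent sets, but these sets are not independent, since values per Mb are those per TTAA site times a constant and the ratios are made from both groups, so the count of 14 cannot be read against that share. hyPBase-centrip replicate 3, with 1638175 insertions, had a TTAA-poor to TTAA-rich ratio of 4.23 per TTAA site (3.09 to 3.42 in the other 9 libraries) and of 0.913 per Mb (0.667 to 0.738). Its thinned share of sites hit was 6.80 points higher in TTAA-poor than in TTAA-rich bins (5.51 to 6.08 in the others). Its relative densities per TTAA site were 1.99 in TTAA-poor and 0.470 in TTAA-rich bins, and per Mb 0.622 and 0.681. The thinned share of TTAA sites hit in TTAA-rich bins was 2.89%.

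hyPBase replicate 8, with 1774712 insertions, had ratios of 3.53 per TTAA site (2.95 to 3.25 in the others) and 0.762 per Mb. In TTAA-rich bins its relative density was 0.527 per TTAA site and 0.763 per Mb, and the thinned share of sites hit was 3.27%. hyPBase replicate 9 had 50.2% of the insertions of TTAA-rich bins on the plus strand (50.5% to 50.8% in the others).

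The difference in same-strand share between TTAA-poor and TTAA-rich bins differed between helpers by -1.68 points (hyPBase-centrip minus hyPBase, permutation test with 100000 resamples, p = 2e-05).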

How the results depend on the processing

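Of the comparisons on 1 value per library, the higher density per TTAA site, the larger share of sites hit, the higher same-strand share and the reads per insertion of TTAA-poor bins kept their direction and stayed past the threshold under every alternative run, among them both single-library omissions, which used 9 libraries. The order per Mb turned with the median over bins, to a log2 ratio of 0.36 with hyPBase and 0.51 with hyPBase-centrip. The difference between helpers in the log2 ratio per TTAA site passed the threshold with insertions of at least 2 reads (0.180, permutation test p = 0.0434) and with odd replicate numbers only (0.159, exact permutation test p = 0.0238, 5 against 5). Without hyPBase replicate 8 it was 0.105, and without hyPBase-centrip replicate 3 it was 0.0447. Counts of bins that differ between helpers are given over all, TTAA-poor and TTAA-rich bins, with the share of the bins tested. They were 718 (2.76%), 32 (2.5%) and 86 (3.15%) with library size as a term. With barcodes collapsed they were 30 (0.115%), 0 (0%) and 8 (0.294%). Odd replicate numbers only gave 75 (0.288%), 4 (0.311%) and 17 (0.623%). DESeq2 gave 335 (1.29%), 3 (0.234%) and 40 (1.47%). The causes were not tested.

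Replicate numbers do not pair the libraries: the correlation of same-numbered libraries had a median of -0.00327 (-0.0376 to 0.0336), and 0 of 10 correlated best with their own number. With the replicate block the log2 ratio difference of 0.0849 had p = 0.121 (exact sign-flip permutation test of 10 pairs), and the block changed no call on values per library. With it edgeR called 359 of all bins (1.38%), 17 TTAA-poor bins (1.33%) and 35 TTAA-rich bins (1.28%).

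Depth limits what can be said of single bins, since a bin could differ 1.25-fold and be missed about as often as found. In the 313 TTAA-poor bins with GC under 46%, where the median bin had 0% unique sites, the part of repeated sequence was not tested.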
